A study of Mus musculus with 6 samples.

Results

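The Speer genes (spermatogenesis associated glutamate (E)-rich proteins) form a rodent family of near copies, most of which lie on mouse chromosome 5. Described here are 8 of its genes and close relatives: Speer4b, Speer4c, Speer4d, Speer4e, Speer4cos, Speer8-ps1, Gm10354 and Gm17019. They were chosen by their symbols and by their measured values in the comparison of ATZ-treated with control testes, so that their differences in that comparison are a description and carry no test. They are 8 of 22180 genes that have a probe set with a single gene symbol on the array, and 9 further genes with a Speer symbol served for comparison.

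Whole testes of C57BL/6J mice were profiled on Affymetrix mouse gene 2.0 st arrays, with 3 ATZ-treated samples and 3 control samples. ATZ is atrazine, a triazine herbicide. The treated mice received 100 mg/l ATZ in drinking water, about 25 mg/kg/day, for 3 weeks, followed by 2 weeks without ATZ, and testes were taken at an age of 10 weeks. The sample descriptions repeat the ATZ treatment text for the control samples and do not say what the control mice drank. They also do not say whether each sample was 1 animal or a pool, so any p-value measures only the spread between these samples, which may be technical. With 3 samples against 3, an exact permutation test of a single probe set cannot give a two-sided p below 0.10. The values are log2 RMA signals, in which a difference of 1 is a doubling.

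Speer transcripts are known from the mouse testis, where the encoded proteins have been described in male germ cells. The proteins are rich in glutamate and share a region with Dlg5, a membrane-associated scaffold protein. The family spread by repeated duplication in rodents, so transcripts of different members can be alike enough for short array probes to read more than a single gene. Speer8-ps1 is a pseudogene, and Speer4cos, which the study calls by an older symbol, is a transcribed pseudogene named as lying opposite Speer4c. What the individual proteins do is not well known, and no role is given for them below.

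In the RefSeq gene table, 7 of the 8 members lay in a dense block on chromosome 5, within a run of 14 genes. Their order was Speer4e, Speer8-ps1, Gm10354, Gm17019, Speer4d, Speer4cos and Speer4c. Speer4b lay apart on the same chromosome, in an interval that overlaps Dpp6, which encodes an auxiliary subunit of potassium channels. Speer8-ps1 overlapped Gm10354, and Speer4cos overlapped Speer4c. Which strand the probe sets of these overlapping genes read was not tested.

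The near identity of the members is visible in the bases around their start sites. RefSeq windows of 250 bases before and 50 bases after the start (build GRCm38.p6) were given for 6 of the 8 members, with none for Speer4cos and Speer8-ps1. The 15 pairs of windows were between 96.6% and 98.7% identical. The highest value was that of Speer4c and Speer4e over 300 aligned columns, and the lowest that of Speer4d and Gm10354 over 290. The windows of Speer4b (chr5:27501343-27501642, minus strand), Speer4c (chr5:15714222-15714521, minus strand) and Speer4d (chr5:15618849-15619148, plus strand) are shown 5′ to 3′ to make the shared sequence visible. Capitals mark TGATGTCA and its reverse complement TGACATCA, an 8-base motif that differs from the cAMP response element TGACGTCA by C4T, counted from the 5′ end of the motif.
Speer4b: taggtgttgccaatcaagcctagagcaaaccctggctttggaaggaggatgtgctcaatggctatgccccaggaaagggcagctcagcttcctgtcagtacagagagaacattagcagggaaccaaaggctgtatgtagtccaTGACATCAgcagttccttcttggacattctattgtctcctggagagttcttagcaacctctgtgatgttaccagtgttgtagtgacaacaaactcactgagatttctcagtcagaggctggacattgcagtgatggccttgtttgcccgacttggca
Speer4c: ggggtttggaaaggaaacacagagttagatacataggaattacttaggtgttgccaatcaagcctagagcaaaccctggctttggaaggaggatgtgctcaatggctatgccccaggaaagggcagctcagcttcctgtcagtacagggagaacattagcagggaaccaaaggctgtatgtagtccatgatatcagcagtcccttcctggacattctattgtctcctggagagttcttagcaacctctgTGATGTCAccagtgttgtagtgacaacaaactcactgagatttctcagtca
Speer4d: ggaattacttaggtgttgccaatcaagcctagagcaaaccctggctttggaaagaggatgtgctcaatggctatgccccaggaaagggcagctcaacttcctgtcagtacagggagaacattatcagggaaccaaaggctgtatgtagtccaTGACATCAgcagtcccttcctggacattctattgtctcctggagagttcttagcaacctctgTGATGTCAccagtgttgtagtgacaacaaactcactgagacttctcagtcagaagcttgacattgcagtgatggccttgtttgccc

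The member windows are near copies, so they are not separate observations for any motif counted here. The motif was picked after the sequences were read. It occurred on either strand in 6 of 6 member windows, against 3.62% of all 32851 windows of the same length, and a match is a description of the letters only. In 4 members (Speer4d, Speer4e, Gm10354 and Gm17019) it occurred in 2 copies, once on each strand, with their first bases 62 bases apart, and Speer4b and Speer4c held 1 copy each. Among the other Speer genes it was found in 5 of the 6 with a window, Speer2 being the exception. A TATA box (TATAAA) was in 0 of 6 member windows and 13.6% of all windows, the intact cAMP response element in 0 of 6 and 1.79%, and TCAAGGTCA or CCAAGGTCA, bound by Nr5a nuclear receptors, in 0 of 6 and 0.956%. Each was searched on both strands.

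A 30-base stretch around the motif showed how the members and the other Speer genes differ. The reference in this comparison was Speer4c, whose stretch was identical in Speer4d and Gm17019. Positions count from 1 at the 5′ end of the stretch, capitals mark the motif in Speer4c, and in the others capitals mark bases that differ from Speer4c. The substitutions were C18T in Speer4b, A1G in Speer4e, C7T in Gm10354, T10C in Speer4a, and A1G, A5T and T8C in Speer3. Of these, C18T falls within the motif. Speer4f1 had 6 substitutions.
Speer4c: agcaacctctgTGATGTCAccagtgttgta
Speer4b: agcaacctctgtgatgtTaccagtgttgta
Speer4e: Ggcaacctctgtgatgtcaccagtgttgta
Gm10354: agcaacTtctgtgatgtcaccagtgttgta
Speer4a: agcaacctcCgtgatgtcaccagtgttgta
Speer3: GgcaTccCctgtgatgtcaccagtgttgta
Speer4f1: agcaacTtctgtgatgtcacAagtTttTAG

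Of the 8 members, 7 had higher values on every ATZ array than on any control array, and Speer4e was the exception. The median difference of the 8 was 0.63 on the log2 scale, beside a median of 0.003 over all 41345 probe sets, and 4 of 8 reached a fold of 1.5. Over all probe sets, 1.04% reached a fold of 1.5 in the same direction and 4.27% were higher on every ATZ array. Among the 23521 probe sets with a single symbol, these shares were 0.153% and 3.87%. Nothing is read from the members' counts against these shares, because the same contrast chose them. Across the whole array 0.00% of probe sets had an adjusted p under 0.05 (limma, Benjamini-Hochberg) and 4.0% had an unadjusted p under 0.05. In bulk testis, more cells that carry these transcripts and more transcript per cell cannot be told apart.

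**Figure D1:**
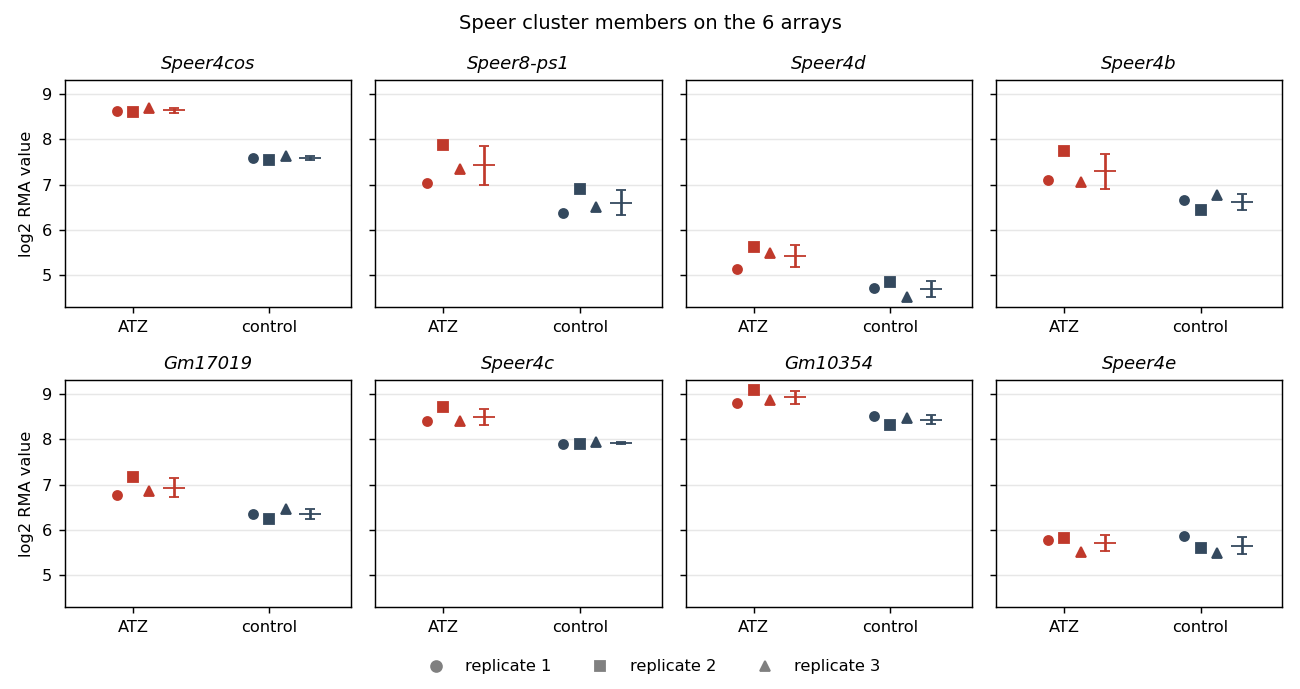
Log2 RMA value of the 8 members on each array, with ATZ samples left (red) and control samples right (blue). Symbols give the replicate number, which does not pair samples, and bars give the mean and SD of 3 arrays. All 3 ATZ points lie above all 3 control points in every panel except that of Speer4e.

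The Speer4c locus showed the widest separation of the groups. Speer4cos, the transcript opposite Speer4c, read 8.63, 8.59 and 8.69 in ATZ testes and 7.59, 7.54 and 7.63 in control testes. The replicates of this gene lay close together, with 8.64 ± 0.05 in ATZ testes and 7.59 ± 0.045 in control testes (SD, n = 3 each), and the lowest ATZ value was 0.96 above the highest control value. The difference was 1.05 (SE 0.08), a fold of 2.07. Speer4c itself read 8.39, 8.70 and 8.40 in ATZ testes and 7.90, 7.90 and 7.94 in control testes. The control samples were nearly equal and ATZ 2 was the highest sample. Its difference of 0.58 (SE 0.11) gave a fold of 1.498, just under 1.5.

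Speer4d came before Speer4cos in gene order, with 4930572O03Rik between them. It was the dimmest member, with its mean at the 22.7th percentile of all probe sets. Its values were 5.15, 5.63 and 5.50 in ATZ testes and 4.73, 4.85 and 4.52 in control testes, with no overlap. The difference was 0.73 (SE 0.16), a fold of 1.65.

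At the other end of the block, the pseudogene Speer8-ps1 varied most between replicates. It read 7.04, 7.88 and 7.34 in ATZ testes and 6.38, 6.91 and 6.50 in control testes, and the lowest ATZ sample was only 0.13 above the highest control sample. Replicate 2 was the highest sample in both groups. The group means were 7.42 ± 0.43 in ATZ testes and 6.60 ± 0.28 in control testes (SD, n = 3 each), with a difference of 0.82 (SE 0.24) and a fold of 1.77. Gm10354, which Speer8-ps1 overlaps, read 8.80, 9.08 and 8.87 in ATZ testes and 8.51, 8.31 and 8.47 in control testes. Here replicate 2 was the highest ATZ sample and the lowest control sample. The difference of 0.49 (SE 0.11) was the smallest among the 7 members without overlap, with a fold of 1.401.

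Gm17019, the next gene in the block, also had ATZ 2 as its highest sample and control 2 as its lowest. Its values were 6.77, 7.17 and 6.86 in ATZ testes and 6.35, 6.23 and 6.47 in control testes. The difference was 0.58 (SE 0.13) and the fold 1.498, so that this gene and Speer4c lay just outside the fold of 1.5. Just inside it was Speer4b, the member away from the block, which read 7.10, 7.74 and 7.05 in ATZ testes and 6.67, 6.43 and 6.77 in control testes. ATZ 2 stood above ATZ 1 and ATZ 3 in Speer4b, and the difference was 0.67 (SE 0.21), a fold of 1.59.

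Speer4e, the first member of the block, was the only one with overlapping groups on its own probe set. It read 5.78, 5.83 and 5.51 in ATZ testes and 5.86, 5.60 and 5.49 in control testes, so that the highest control value was above all ATZ values. The difference was 0.06 (SE 0.14). This probe set was dim, with its mean at the 32.3rd percentile of all probe sets. Of the 8 members, 6 had a mean above the median of the array, and Speer4d and Speer4e lay below it.

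A further 6 probe sets are annotated with a member together with other symbols and were kept apart. All 6 were higher on every ATZ array than on any control array, and 2 of 6 reached a fold of 1.5. Over all probe sets these shares were 4.27% and 1.04%. Nothing is read from the counts, because the same contrast chose the members and 4 of the 6 name nearly the same genes. The probe set shared by Speer4e, Speer4cos and Gm17019 (17445673), which the study lists under Speer4e, read 10.05, 10.21 and 10.31 in ATZ testes and 9.31, 9.02 and 9.28 in control testes. Its difference was 0.99 (SE 0.12), a fold of 1.98. The difference read for Speer4e depended on the probe set, with 0.99 on the shared one and 0.06 on the one that carries this symbol alone. The probe set shared by Speer4e and Gm17019 (17548436) read 8.14, 8.48 and 8.58 in ATZ testes and 7.23, 7.07 and 7.69 in control testes, a difference of 1.07 (SE 0.19). Gm17019, which the study also lists by this probe set, likewise had a larger difference on both shared probe sets than the 0.58 of its own. The other 4 name Speer4b with several relatives, and their differences were between 0.31 and 0.37, with gaps of 0.01 to 0.07 between the lowest ATZ and the highest control value. The share of each gene in a shared signal was not tested.

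The other 9 Speer genes with a probe set of their own did not pass the test. Of these, 0 of 9 had an adjusted p under 0.05 and 0 of 9 an unadjusted p under 0.05 (limma), beside 0.00% and 4.0% of all probe sets, and their median difference was -0.06. The 4 highest differences were those of Speer4a at 0.13 (SE 0.24), Speer4f2 at 0.13 (SE 0.17), Speer4f1 at 0.09 (SE 0.13) and Speer1 at -0.04 (SE 0.12). The 4 lowest were Speer3 at -0.20 (SE 0.18), Speer6-ps1 at -0.15 (SE 0.08), Speer9-ps1 at -0.11 (SE 0.15) and Speer2 at -0.07 (SE 0.09). Speer6-ps1 read 6.38, 6.42 and 6.41 in ATZ testes and 6.62, 6.49 and 6.56 in control testes, lower on every ATZ array (adjusted p = 0.998, limma). Dlg5 differed by -0.03 (SE 0.08). Differences between members and these genes were not tested, since the members were chosen by theirs.

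**Figure D2:**
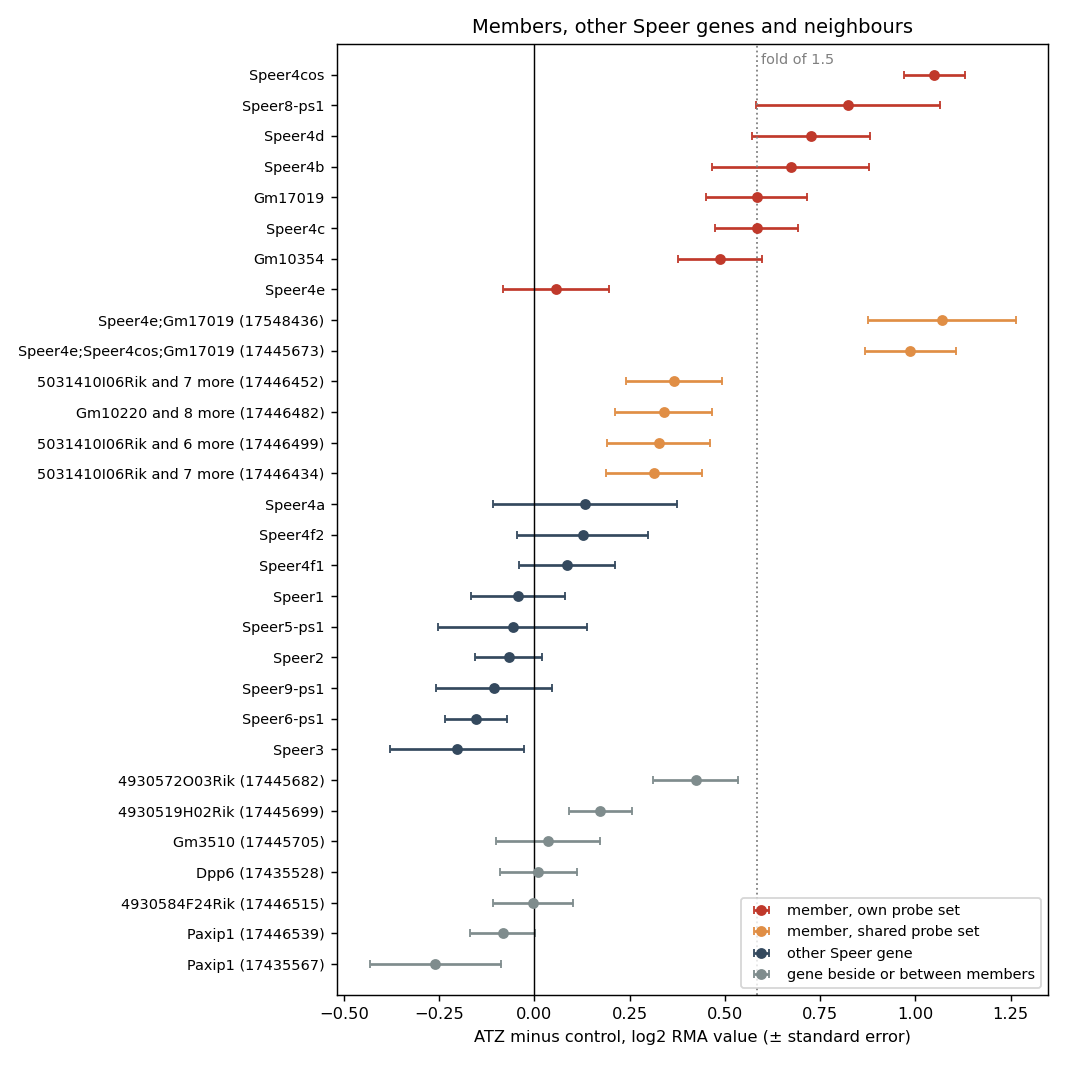
ATZ minus control difference in log2 RMA value, with its limma standard error, for the 8 members, the 6 shared probe sets (identifiers in brackets), the 9 other Speer genes and the 7 probe sets of neighbouring genes. The solid line is no difference and the dotted line a fold of 1.5. Members other than Speer4e lie between 0.49 and 1.05, and the other Speer genes between -0.20 and 0.13.

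Likeness to the members at the start site and the difference on the arrays were set side by side. Against its best-matching member window, Speer4a was 95.7% identical, Speer4f1 86.9%, Speer4f2 86.0%, Speer1 76.2% over 202 aligned columns and Speer3 70% over 210. Speer4a, with the highest likeness among the named Speer genes, had overlapping groups. A search of all windows for 90% identity over at least 250 columns, added after the data were seen, found 16 genes besides the members, all on chromosome 5. Those without a Speer symbol carried TGATGTCA, on either strand, in 15 of 15 windows. Of the 16 genes, 4 (Gm9758, Gm21149, Gm21190 and Gm21083) lay within or beside the dense block at 97.2% to 98.2% identity and had no probe set of their own. Elsewhere on the chromosome there were 12 at 93.1% to 96.6%, of which 5 had one.

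Among those 5, Gm10220 read 6.51, 6.63 and 6.51 in ATZ testes and 6.19, 5.60 and 6.34 in control testes. The samples did not overlap, and the difference was 0.51 (SE 0.20). The unadjusted p was 0.038 and the adjusted p 0.998 (limma). Of the 5, 1 did not overlap and 1 had an unadjusted p under 0.05, Gm10220 in both cases, beside 4.27% higher without overlap and 4.0% of all probe sets. Gm10471 differed by 0.37 (SE 0.19), Gm5862 by 0.09 (SE 0.36) and Gm7361 by -0.05 (SE 0.14), each with overlapping groups. A probe set shared by Gm9758, Gm21190 and Gm21149 of the dense block read 8.0, 8.63 and 7.98 in ATZ testes and 7.48, 7.09 and 7.64 in control testes. Its difference was 0.80 (SE 0.22), with no overlap and ATZ 2 again the highest sample. The study itself lists this probe set, under Gm9758, among its differentially expressed genes. The study used a fold of 1.5 and a p under 0.05, and does not state an adjustment. Here this probe set had a fold of 1.74 and an unadjusted p of 0.010 (limma). An unadjusted p under 0.05 was found for 4.0% of all probe sets. The adjusted p of this probe set was 0.998 (limma), where 0.00% of all probe sets had one under 0.05. A probe set shared by Gm21680, Gm21671 and Gm1979, elsewhere on the chromosome, differed by -0.21 (SE 0.21), with overlapping groups.

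**Figure D3:**
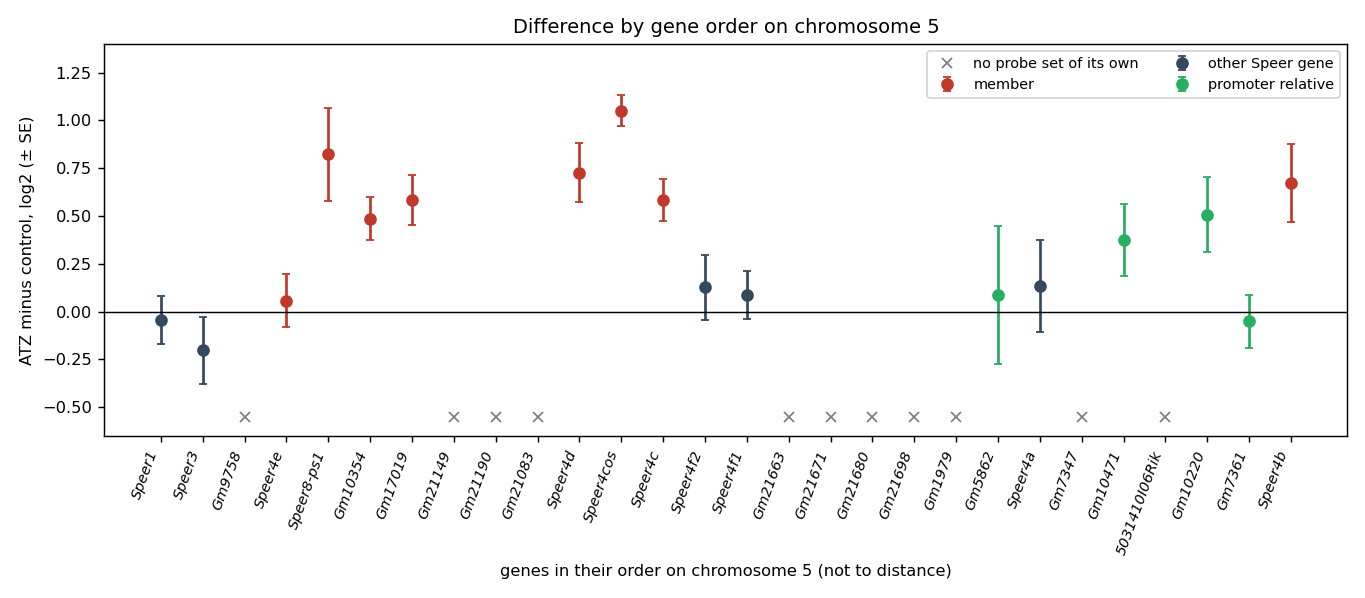
ATZ minus control difference in log2 RMA value with its limma standard error, for members, other Speer genes and genes with a member-like promoter window, in their order along chromosome 5 and not to distance. Crosses mark genes with no probe set of their own and have no value. Within the dense block, members from Speer4e to Speer4c, the differences were between 0.06 and 1.05, and those of Speer4f2 and Speer4f1, the next genes drawn after it, were 0.13 and 0.09.

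Genes of the same intervals that carry no Speer or member symbol gave 7 probe sets, with a median difference of 0.01. This median pools 2 regions. Of the 13 such genes listed in or beside the dense block, only 3 had a probe set of their own: 4930572O03Rik, 4930519H02Rik and Gm3510. The probe sets of 4930584F24Rik, Dpp6 and Paxip1 belong to the region of Speer4b. Of the 7, 0 had an adjusted p under 0.05 and 1 an unadjusted p under 0.05 (limma), beside 0.00% and 4.0% of all probe sets. The 1 with an unadjusted p under 0.05 was 4930572O03Rik, which lies between Speer4d and Speer4cos. It read 8.24, 8.48 and 8.38 in ATZ testes and 7.90, 7.83 and 8.10 in control testes, without overlap, a difference of 0.42 (SE 0.11, adjusted p = 0.998, limma). The highest of the rest was 4930519H02Rik at 0.17 (SE 0.08), also without overlap. Thus 2 of 7 were higher on every ATZ array, beside 4.27% of all probe sets. Gm3510 followed at 0.04 (SE 0.14), and 4930584F24Rik was at -0.003 (SE 0.10). Dpp6, whose interval holds Speer4b, differed by 0.01 (SE 0.10), and the probe sets of Paxip1, which encodes a chromatin and DNA damage response protein, by -0.08 (SE 0.08) and -0.26 (SE 0.17).

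The members were also compared by how they varied across the arrays. ATZ 2 was the highest of the ATZ samples in 7 of 8 members, and ATZ 1 the lowest in 5 of 8. The same shares over all probe sets are not given, so nothing is read from these counts. Over the 6 arrays, the 28 pairs of members had a median Pearson r of 0.88 (0.14 to 0.99), which includes the difference that chose them. After each group's mean was subtracted, the median was 0.36, with a range of -0.62 to 0.96 and 20 of 28 pairs above 0. Without ATZ 2 this median was -0.16. These values rest on 6 arrays and on probe sets that may read shared transcripts, and no p is given.

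Members fell on different sides of that median. Speer4b, Speer4c, Gm10354 and Gm17019, grouped after their values were seen, had 6 pairs with r between 0.81 and 0.96 within groups, although Speer4b lies away from the others. Speer4cos had r between -0.62 and -0.07 with the other 7, within groups whose SD was 0.05 and 0.045. Speer4e had a median r of 0.23 with the others over the 6 arrays and 0.15 within groups.

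**Figure D4:**
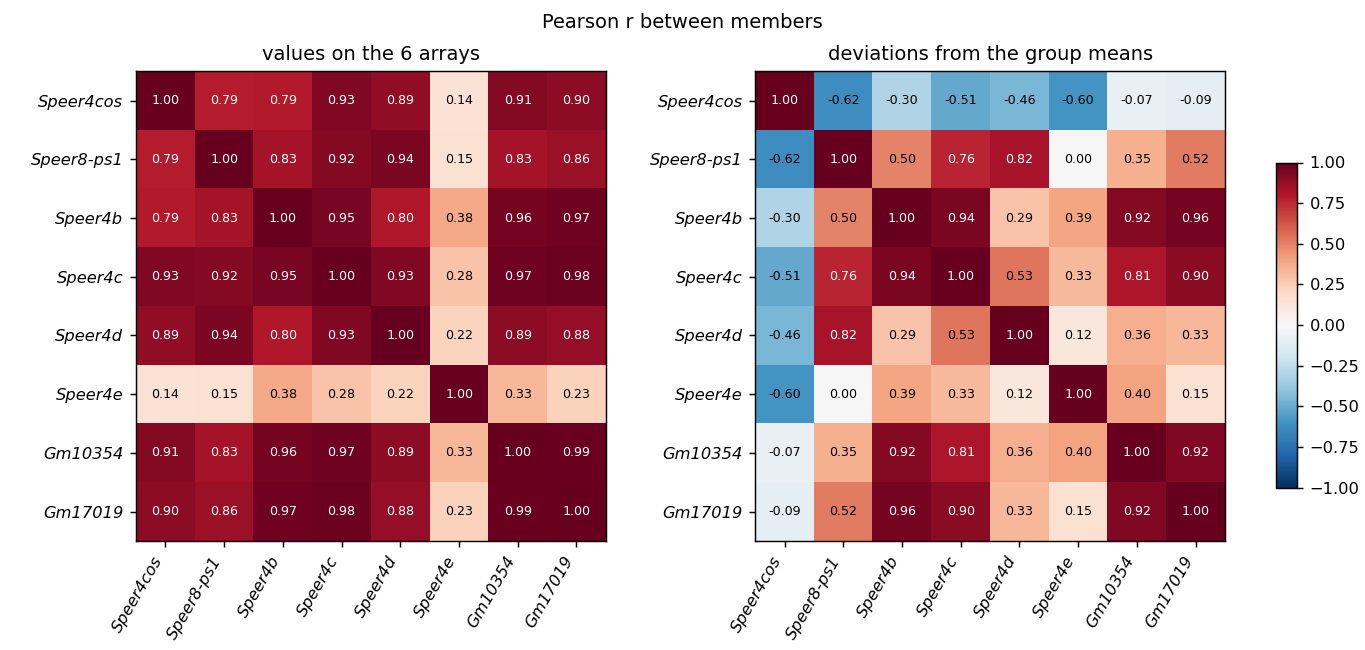
Pearson r between the 8 members, over the values of 6 arrays (left) and over deviations from the group means on the same arrays (right). Both panels run on a colour scale of -1 to 1. On the left only Speer4e stands apart, and on the right Speer4cos has r below 0 with every other member.

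Among 14819 probe sets above the median level, those most like the mean of the members over the 6 arrays were Lncbate3 (r = 0.978), Pdcd2l (0.978), G6pc3 (0.976), Mrpl39 (0.973) and Ecscr (0.966). Their own differences were 0.16, 0.13, 0.07, 0.08 and 0.14, below those of the 7 members without overlap and above the 0.06 of Speer4e. By deviations from the group means, the closest were Hdac1 (0.996), Zfp788 (0.995), Eif1a (0.995), Kdm3a (0.995) and Lysmd4 (0.994). Both lists were picked as the highest of 14819 over 6 arrays, and no p is given. The members' mean deviated by -0.15, 0.22 and -0.08 on ATZ 1, 2 and 3 and by -0.01 to 0.02 on the control arrays. Such an r can rest on very small differences, as Kdm3a read 11.19, 11.23 and 11.20 in ATZ testes and 11.21 in every control sample. Hdac1, for example, read 12.25, 12.38 and 12.27 in ATZ testes and 12.27, 12.25 and 12.26 in control testes, with ATZ 2 the highest sample.

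All 12 round spermatid markers lay above the array median, as did those of elongating spermatids. Round spermatid markers averaged 11.63 to 11.71 across ATZ samples and 11.62 to 11.66 across control samples, with a median difference of 0.005 and 7 of 12 higher. For elongating spermatids the ATZ samples spanned 12.77 to 12.81 and the control samples 12.78 to 12.84, with 6 of 11 markers lower in ATZ testes. For pachytene and diplotene spermatocytes the spans were 11.66 to 11.69 in ATZ samples and 11.67 to 11.73 in control samples. Of the spermatocyte markers 8 of 11 were lower, with a median difference of -0.03. Leydig cell markers had a median difference of -0.12, with 7 of 7 lower in ATZ testes and means of 10.56 to 10.72 across ATZ samples against 10.57 to 11.06 across control samples. The differences of single Leydig cell markers ran from -0.64 to -0.01. Of the 7, 1 had an unadjusted p under 0.05 (limma), beside 4.0% of all probe sets. Spermatogonial markers also had a median of -0.12 (7 of 8 lower), Sertoli cell markers one of -0.09 (8 of 10 lower) and leukocyte markers one of -0.06 (5 of 6 lower). The array means of all these lists overlapped between groups. Spermatogonial markers spanned 7.88 to 8.01 in ATZ and 7.96 to 8.22 in control samples. Sertoli cell markers spanned 9.13 to 9.27 and 9.12 to 9.46, and leukocyte markers 7.53 to 7.785 and 7.44 to 7.99, in the same order. Epididymal markers had a median of 0.04, and 3 of 7 were above the array median. The adjusted p was under 0.05 for 0 markers of any list (limma), and the part of these differences in the members' values was not tested.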

How the data were processed

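The authors deposited log2 values from RMA in Affymetrix Expression Console (versions not given in the sources used here), already background-corrected, normalized and rounded to 2 decimals. Differences between 3 ATZ and 3 control arrays and their standard errors came from limma 3.58.1 in R 4.3.3 (lmFit, eBayes, two-sided), with Benjamini-Hochberg adjustment over 41345 probe sets and no filter. The fit was tested on simulated data. The number of arrays limits the precision. In the platform annotation 23521 probe sets had 1 symbol, 1820 had more and 16004 had none.

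Promoter windows (RefSeq, GRCm38.p6) were aligned in Biopython 1.88. Gene order came from RefSeq, without coordinates, since the build of the array annotation was not given. Every member was named. For other Speer genes and neighbours, the 4 highest and 4 lowest differences were named, and the 5 most alike probe sets for each correlation measure. Other sequence relatives were chosen after their values were seen. Members and lists were chosen with earlier results of these data known. Alternatives were a replicate block, other variance models, array weights, repeated normalization, centring, a level filter, shared probe sets and leaving out each array. Equal replicate numbers were not taken as pairs. Protein sequences were not analysed here.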

Additional observations from a re-analysis of the deposited data

How the results depend on the processing

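The median difference of the members was 0.63 and lay between 0.47 and 0.72 when each array was left out. The count at a fold of 1.5 lay between 3 and 6. The count of members higher without overlap was 7 each time and could not have fallen. Leaving out an array cannot make separate groups overlap, so nothing is read from that count. With array weights, repeated quantile normalization, centring, linear means and each array left out in turn, single members kept their direction, except Speer4e, whose difference lay between -0.023 (without control 3) and 0.16 (without control 1) with each array left out, and was -0.005 without ATZ 2. With shared probe sets counted in, 13 of 14 did not overlap, beside 4.27% of all probe sets, and nothing is read from this count. A fold of 1.4, chosen after seeing the data, gave 7 members and one of 1.6, likewise, gave 3. Shares of all probe sets at these 2 folds are not given, and nothing is read from the counts. The median correlation within groups (0.36) was the least stable value. It lay between -0.16 (without ATZ 2) and 0.59 (without control 2) with each array left out in turn, and was 0.57 without control 3, 0.52 for members above the median level, 0.50 with shared probe sets and 0.88 with the group difference kept in. The cause was not tested. With the replicate number as a block the median correlation was 0.78, but a block leaves fewer free values for r. Each replicate number occurs once in each group, so the block cannot change a difference of means, and the median difference of 0.63 was the same by construction. Samples of equal number had deviations that correlated at 0.02, 0.11 and 0.26, not each sample correlated best with its own number, and the block gave 0 probe sets at an adjusted p under 0.05, for other Speer genes as well. Over all probe sets, limma gave 0 at that threshold, 2 with the trend and robust settings and 2 among those above the median level.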

Other observations

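Windows that shared at least 5 runs of 12 bases with a member window were aligned to it. Among these, windows with a weaker likeness outside chromosome 5 lay on chromosome 14, in 27 genes, at 59.7% to 80.0% identity over at least 100 aligned columns. E330034G19Rik was 75.6% identical to Speer4e over 258 columns. The 10 probe sets of these genes had differences between -0.24 and 0.30, with a median of 0.08, and 0 of 10 had an adjusted or unadjusted p under 0.05 (limma).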
